A study of Rattus norvegicus with 12 samples.

Results

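Reference genes are transcripts against which other transcripts are scaled, most often in quantitative PCR, on the premise that their own level stays level between samples. Of the 28959 rows of a hippocampal RNA-seq table, 5 were taken by their rat Ensembl IDs as common reference genes: Gapdh (ENSRNOG00000018630), Actb (ENSRNOG00000034254), Ppia (ENSRNOG00000027864), Tbp (ENSRNOG00000001489) and Ywhaz (ENSRNOG00000008195). All 5 were detected in every library and were among the 15253 tested rows, those averaging 0.5 FPKM or more. FPKM values are reads scaled to gene length and to the total reads of a library.

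The hippocampi came from Sprague Dawley rats labelled as 6 to 7 weeks old, with 3 libraries in each of 4 groups. The unstressed control rats (Ctrl-Sal) were given saline for 7 days. The other 3 groups went through 5 weeks of chronic unpredictable mild stress (CUMS), in which mild stressors alternate and which serves as a rodent model of depression. For 7 days they received saline (CUMS-Sal), the serotonin reuptake inhibitor fluoxetine (CUMS-Flx) or albiflorin, a glycoside of peony root (CUMS-Alb). The albiflorin dose was 7 mg/kg/d, and for fluoxetine the sample labels give 10 mg/kg/d and the series text 7 mg/kg/d. Between 14735953 and 18109623 reads per library lay behind the FPKM values. Nothing in the labels ties replicate libraries to separate animals, so p-values describe the spread among libraries, some of which may be technical. Ctrl-Sal replicate 2 stands apart from the other libraries in several of these genes, and values without it are given beside the results it moves most.

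The 5 genes belong to unrelated cellular processes. Gapdh encodes the glycolytic enzyme glyceraldehyde-3-phosphate dehydrogenase, and Actb encodes beta-actin of the cytoskeleton. Ppia encodes cyclophilin A, a peptidyl-prolyl isomerase that assists protein folding and is the target of cyclosporin. Ywhaz encodes 14-3-3 zeta, an adaptor that binds phosphorylated proteins and is abundant in brain. Tbp encodes the TATA-binding protein, a subunit of the general transcription factor TFIID, and is usually a low-abundance transcript. Gapdh, Actb and Ppia are known for many processed pseudogenes in mammalian genomes, so reads could be shared with near-identical copies, and how the authors counted such reads is not given in the sources used here.

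Upstream sequences are shown for Gapdh and Ppia, the genes that differed most in opposite directions between stressed and unstressed rats, and for Tbp, whose product binds the TATA box. They are the 250 bases before the annotated start, 5′ to 3′, from RefSeq on build GRCr8, which is not the rn6 build of the expression values. They lie at chr4:159652468-159652717 on the minus strand, chr14:85492966-85493215 on the plus strand and chr1:65136458-65136707 on the plus strand. Capitals mark the motif TATAAA, searched on both strands.
Gapdh: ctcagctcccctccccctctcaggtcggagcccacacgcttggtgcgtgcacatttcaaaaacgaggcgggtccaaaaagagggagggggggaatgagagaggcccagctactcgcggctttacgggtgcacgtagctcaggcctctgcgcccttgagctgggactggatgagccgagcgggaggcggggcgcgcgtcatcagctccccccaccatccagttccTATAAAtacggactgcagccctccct
Ppia: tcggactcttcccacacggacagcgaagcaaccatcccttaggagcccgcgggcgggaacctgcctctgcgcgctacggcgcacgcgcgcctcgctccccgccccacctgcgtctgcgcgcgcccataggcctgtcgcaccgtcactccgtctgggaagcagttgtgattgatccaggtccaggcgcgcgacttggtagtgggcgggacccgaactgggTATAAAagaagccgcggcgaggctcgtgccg
Tbp: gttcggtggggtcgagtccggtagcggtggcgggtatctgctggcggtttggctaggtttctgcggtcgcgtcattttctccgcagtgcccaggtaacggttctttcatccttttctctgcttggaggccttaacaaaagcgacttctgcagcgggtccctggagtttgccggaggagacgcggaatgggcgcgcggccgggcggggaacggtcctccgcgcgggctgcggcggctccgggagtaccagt
The motif began 26 bases before the start in Gapdh and 31 bases before it in Ppia, and these letters were not in the Tbp window. TATAAA on either strand was found in 12.9% of all 33469 windows of this kind in the RefSeq table. The Gapdh, Ppia and Tbp windows held 63.6%, 68% and 64.4% G and C, against a median of 51.2% over all windows.

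Actb, Ppia, Gapdh and Ywhaz stood close together, and Tbp far below. Actb averaged 1568 FPKM over the 12 libraries, Ppia 1215, Gapdh 1097, Ywhaz 877 and Tbp 9.66. Actb, Ppia, Gapdh and Ywhaz were thus among the 71 rows averaging 500 FPKM or more, none of them among the 9 rows that each took over 1% of the reads. Tbp stood close to the median tested row, at 8.12 FPKM. The order of Ppia and Gapdh was not the same in every library: Gapdh was below Ppia in all 3 Ctrl-Sal libraries and above it in 5 of the 9 stressed ones. In whole tissue, fewer cells of a type and less RNA per cell cannot be told apart in any of these levels.

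Gapdh was the most variable of the 5. Its level in the Ctrl-Sal libraries was 1000.1, 657 and 1043 FPKM in replicates 1, 2 and 3. In CUMS-Sal it was 1120.1, 1187 and 1216 FPKM, in CUMS-Flx 1046, 1172 and 1224 FPKM, and in CUMS-Alb 1310.0, 1152 and 1037 FPKM. Ctrl-Sal replicate 2 was by far the lowest library, and all CUMS-Sal and CUMS-Flx libraries lay above all Ctrl-Sal ones, while CUMS-Alb overlapped Ctrl-Sal. The lowest and highest library differed 1.99-fold, or 1.31-fold without Ctrl-Sal replicate 2. The coefficient of variation (CV) over 12 libraries was 15.2%, and 8.52% without that library.

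Actb followed the same order more narrowly. It stood at 1414, 1244 and 1646 FPKM in Ctrl-Sal, 1685, 1614 and 1744 in CUMS-Sal, 1433, 1612 and 1565 in CUMS-Flx and 1684, 1605 and 1569 in CUMS-Alb. Ctrl-Sal replicate 2 was again the lowest library, but replicate 3 of the same group lay among the stressed libraries, so Ctrl-Sal overlapped every stressed group. The CV was 8.95%, and 6.33% without Ctrl-Sal replicate 2.

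Ppia ran the other way. It stood at 1328, 1490.1 and 1265 FPKM in Ctrl-Sal, 1171, 1043 and 1184 in CUMS-Sal, 1265, 1211 and 1139 in CUMS-Flx and 1209.7, 1129.5 and 1139 in CUMS-Alb. Every stressed library lay below every Ctrl-Sal library, with the highest CUMS-Flx library and the lowest Ctrl-Sal library nearly equal at 1265 FPKM. Ctrl-Sal replicate 2 was the highest of the 12. The CV was 9.45%, and 6.63% without that library.

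Ywhaz was the steadiest of the 5. It stood at 859.8, 889 and 910.1 FPKM in Ctrl-Sal, 901, 868 and 876 in CUMS-Sal, 847, 889 and 901 in CUMS-Flx and 895, 864 and 828 in CUMS-Alb. All 4 groups overlapped, and Ctrl-Sal replicate 2 lay in the middle of the range. The lowest and highest library differed 1.10-fold and the CV was 2.82%, or 2.93% without Ctrl-Sal replicate 2.

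Tbp was measured on 253 to 340 reads a library, against 9991 to 36638 for the other genes. It stood at 9.20, 11.6 and 9.27 FPKM in Ctrl-Sal, 10.3, 9.89 and 9.54 in CUMS-Sal, 9.57, 9.16 and 8.84 in CUMS-Flx and 10.8, 8.61 and 9.08 in CUMS-Alb. Ctrl-Sal replicate 2 and CUMS-Alb replicate 1 were the highest libraries, and all groups overlapped. Counting error alone gives a CV of 5.85% at its mean of 292 reads, against 9.06% observed over 12 libraries and 6.79% without Ctrl-Sal replicate 2. For the other 4 genes it gives 0.551% to 0.903%, below each observed CV. These figures cover counting error only, since reads were not counted by molecular identifiers.

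**Figure D1:**
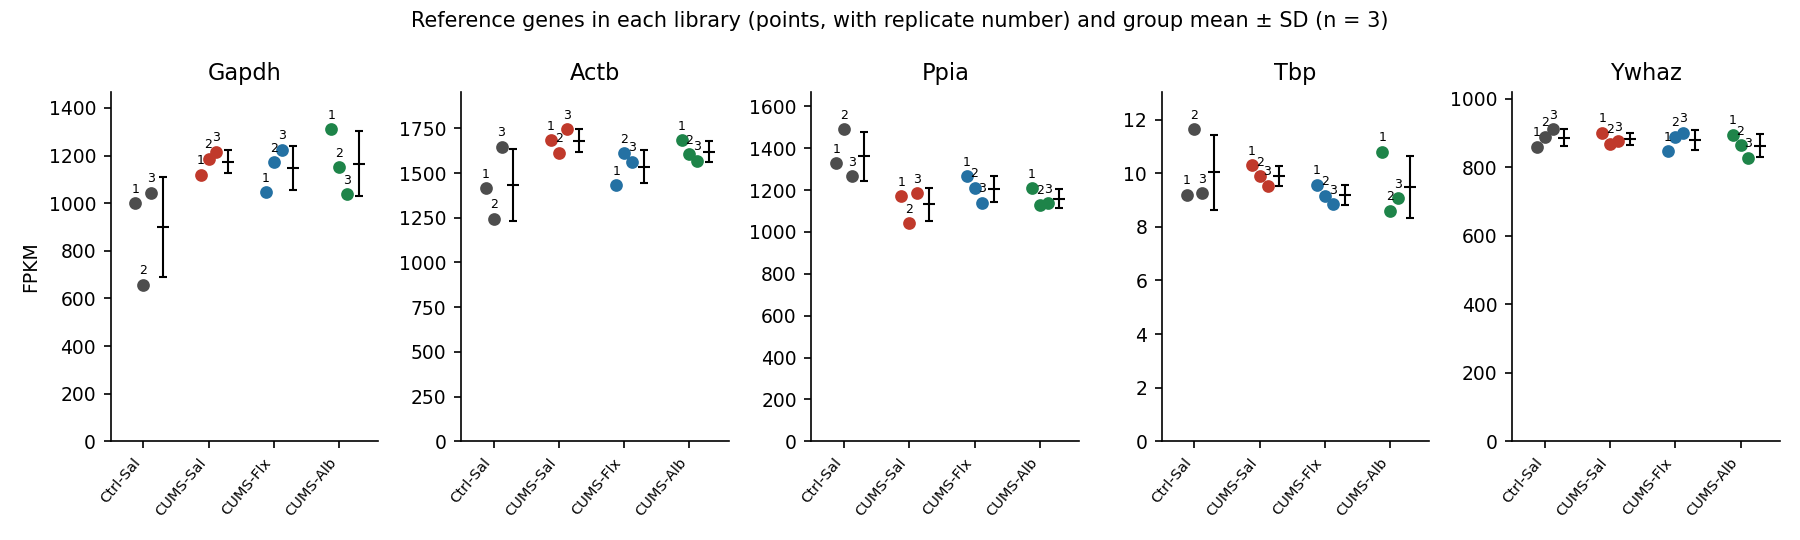
FPKM (y axis, from 0) of each reference gene in the 12 libraries by group (x axis); points carry the replicate number and the bars to their right are the group mean and SD (n = 3). Ctrl-Sal replicate 2 is the lowest library for Gapdh (657 FPKM) and Actb (1244 FPKM) and the highest for Ppia (1490.1 FPKM) and Tbp (11.6 FPKM), while Ywhaz stays between 828 and 910.1 FPKM.

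Set against the whole table, Ywhaz was among the least variable transcripts and Gapdh among the more variable ones. On the log2(FPKM + 0.5) scale the SD over 12 libraries was 0.04 for Ywhaz, 0.12 for Tbp, 0.13 for Ppia, 0.14 for Actb and 0.26 for Gapdh, against a median of 0.16 over the 15253 tested rows. A smaller SD was found in 0.216% of tested rows for Ywhaz, 29.6% for Tbp, 36.1% for Ppia, 38.3% for Actb and 80.1% for Gapdh. Spread depends on level, so the genes were also ranked within their level. Of the 71 rows averaging 500 FPKM or more, 0 had a smaller SD than Ywhaz, 34 a smaller SD than Ppia, 35 than Actb and 66 than Gapdh. Of 5158 rows at 5 to 20 FPKM, 1803 had a smaller SD than Tbp. These ranks within level include Ctrl-Sal replicate 2 and were not made without it. The Gapdh SD was 0.12 without that library. Without Ctrl-Sal replicate 2, the share of tested rows with a smaller SD became 40.4% for Gapdh, 22.2% for Actb, 23.9% for Ppia, 20.8% for Tbp and 0.603% for Ywhaz. Over the 9 stressed libraries alone it was 36.9%, 19.3%, 18.2%, 31.7% and 1.40% in the same order. The steadiness of Ywhaz and the order of the other genes were partly a matter of scale. Ranks were also taken with the median deviation of all tested genes set to 0 in each library. The SD was then 0.06 for Ywhaz, 0.10 for Actb, 0.14 for Tbp, 0.17 for Ppia and 0.22 for Gapdh. Smaller SDs were found in 2.60%, 16.7%, 41.6%, 58.9% and 73.8% of tested rows in the same order.

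**Figure D2:**
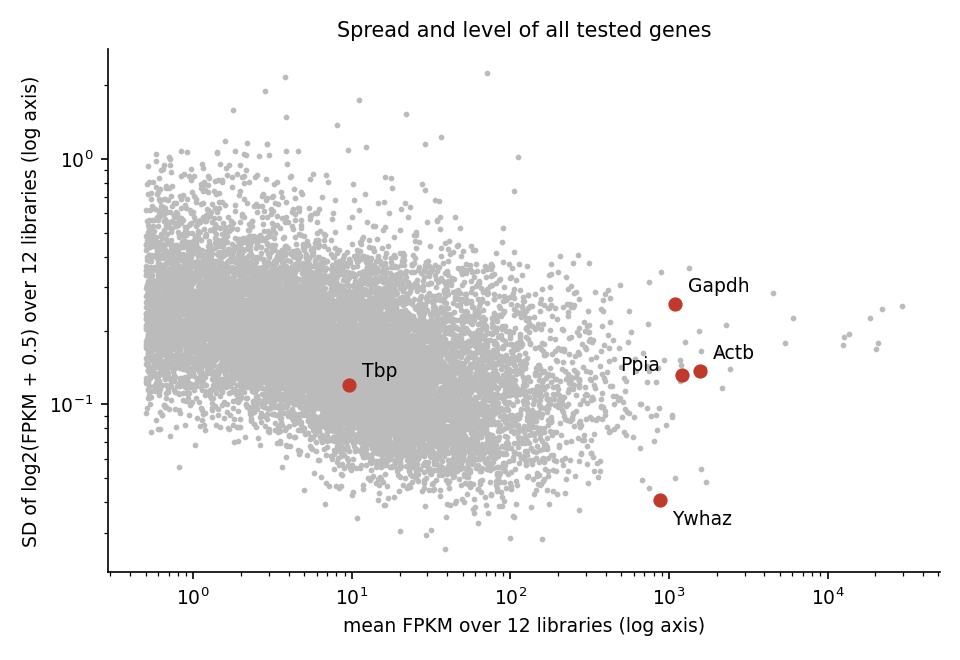
SD of log2(FPKM + 0.5) over the 12 libraries (y axis, log scale) against mean FPKM (x axis, log scale) for the 15253 tested rows (grey) and the 5 reference genes (red). Ywhaz lies at the lower edge of the cloud with an SD of 0.04, and Gapdh at its upper part among abundant genes with 0.26.

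Stress without drug treatment was read from CUMS-Sal against Ctrl-Sal, where a suitable reference gene should not itself differ. 0 of the 5 genes were called by limma at a Benjamini-Hochberg adjusted p under 0.05, where 9.19% of all tested rows were called (8.05% higher and 1.14% lower). At an unadjusted p under 0.05 there were 3 of the 5, Ppia, Gapdh and Actb, and 4572 of all rows. Ppia was lowest in p, at 1133 ± 78.3 FPKM in CUMS-Sal against 1361 ± 116 in Ctrl-Sal (SD, n = 3; log2 difference -0.26, SE 0.08, 95% interval -0.43 to -0.10, adjusted p = 0.0505). Gapdh was at 1175 ± 49.3 against 900.1 ± 212 FPKM (log2 difference 0.41, SE 0.15, 95% interval 0.09 to 0.73, adjusted p = 0.0868). Actb was at 1681 ± 65.1 against 1435 ± 202 FPKM (log2 difference 0.24, SE 0.09, 95% interval 0.04 to 0.43, adjusted p = 0.103). The libraries of the groups did not overlap for Gapdh, which was higher in CUMS-Sal, and Ppia, which was lower; over all tested rows 25.3% did not overlap with CUMS-Sal higher and 5.85% with CUMS-Sal lower.

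Ywhaz and Tbp showed the smallest differences after stress, with unequal precision, and neither was called under any alternative. Ywhaz was at 882 ± 17.2 against 886 ± 25.3 FPKM (log2 difference -0.01, SE 0.06), and its 95% interval of -0.13 to 0.11 corresponds to 0.915-fold to 1.08-fold. Tbp was at 9.91 ± 0.380 against 10.0 ± 1.39 FPKM (log2 difference -0.01, SE 0.10), with an interval of 0.851-fold to 1.16-fold. The Tbp difference without Ctrl-Sal replicate 2 was 0.10 (limma adjusted p = 0.576), of opposite sign, and the Ywhaz difference stayed at -0.01. These intervals bound the difference and do not show equality.

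Single libraries and the scaling moved the calls for Ppia, Gapdh and Actb. Without Ctrl-Sal replicate 3 all 3 passed the limma test, Ppia at a log2 difference of -0.31 (adjusted p = 0.0241), Gapdh at 0.53 (adjusted p = 0.0324) and Actb at 0.34 (adjusted p = 0.0168). Calls rose across the table in that fit, to 2637 of the 15253 tested rows against 1402 with all libraries. Without Ctrl-Sal replicate 2 the differences were -0.20, 0.20 and 0.14, with limma adjusted p-values of 0.133, 0.222 and 0.301. The median difference of all tested rows was 0.10. With each library's median deviation set to 0, the log2 differences were -0.37 for Ppia, which was then called (adjusted p = 0.0394), 0.31 for Gapdh, 0.13 for Actb, -0.11 for Tbp and -0.11 for Ywhaz, none of these 4 called by limma. Of all 15253 tested rows, 743 were called on that scale. On that scale without Ctrl-Sal replicate 2, Ppia was at -0.28 and no longer called (limma adjusted p = 0.0869), Gapdh was at 0.12, Actb at 0.06, Tbp at 0.01 and Ywhaz at -0.09. Ppia was also called by limma-voom on recovered reads (adjusted p = 0.0312), where 1849 of 15678 rows were called. Over all alternatives the limma adjusted p ran from 0.0241 to 0.169 for Ppia, 0.0324 to 0.472 for Gapdh and 0.0168 to 0.703 for Actb, and no alternative reversed these 3 directions.

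**Figure D3:**
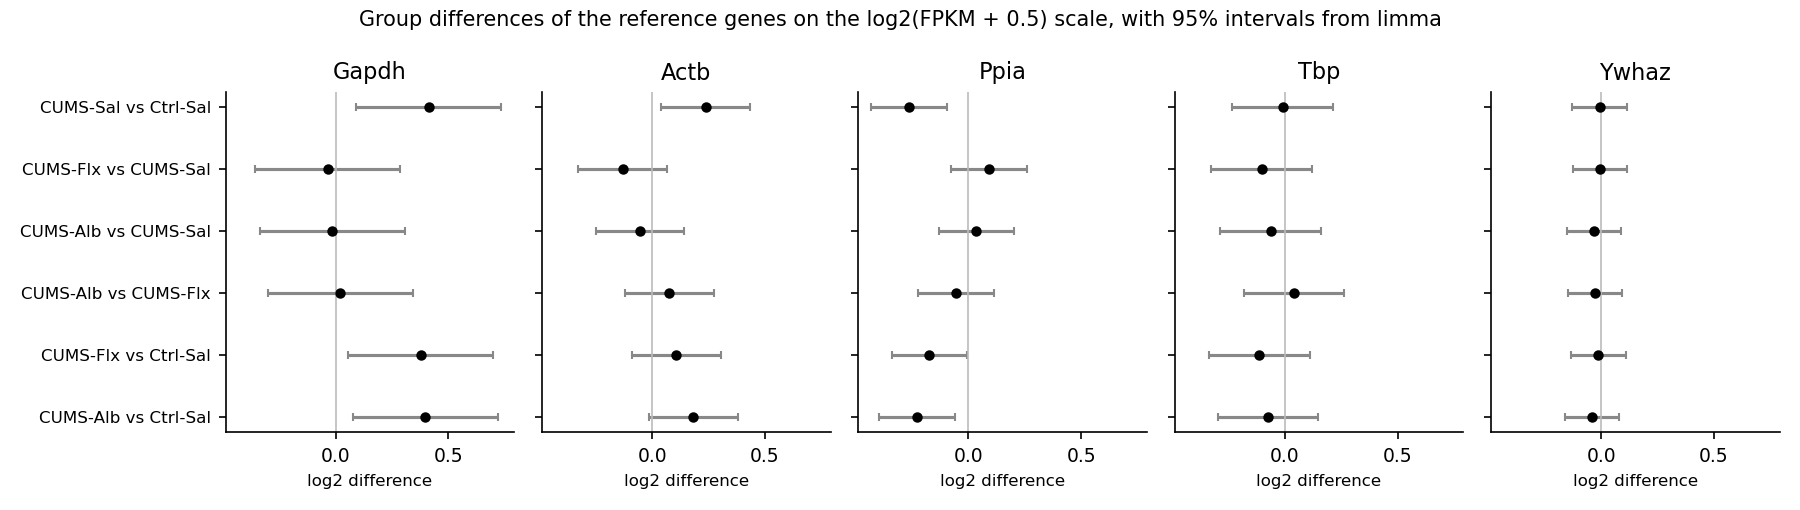
Log2 difference of each reference gene in the 6 group comparisons (points), on the log2(FPKM + 0.5) scale, with 95% intervals from limma (bars); x axis in log2 units, y axis the comparison. Intervals lie away from 0 for Gapdh and Ppia against Ctrl-Sal in all 3 stressed groups and for Actb in CUMS-Sal, while the Ywhaz intervals are the narrowest and include 0 throughout.

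Other measures of the libraries also differed between Ctrl-Sal and CUMS-Sal. The 9 rows that each took over 1% of the reads held 17.4% to 22.0% of the reads in the Ctrl-Sal libraries and 14.7% to 15.0% in CUMS-Sal, with the highest share in Ctrl-Sal replicate 2. Their share was 15.3% to 18.8% in CUMS-Flx, where replicate 1 exceeded Ctrl-Sal replicate 3, and 14.6% to 15.6% in CUMS-Alb. For rows over 3000 bp the median log2 deviation from the 12-library mean was -0.08, -0.09 and -0.05 in the Ctrl-Sal libraries, against 0.04 to 0.07 in CUMS-Sal. It was -0.06 to 0.03 in CUMS-Flx, with replicate 1 below Ctrl-Sal replicate 3, and 0.04 to 0.05 in CUMS-Alb. The corresponding values for rows of up to 1000 bp were 0.03, -0.09 and -0.01 in Ctrl-Sal and -0.00 to 0.06 in CUMS-Sal. They were -0.00 to 0.02 in CUMS-Flx and -0.01 to 0.05 in CUMS-Alb. The rows of Ppia and Gapdh are short, at 623 and 1002 bp, and Actb, Ywhaz and Tbp measure 1293, 1677 and 1867 bp against a median of 2127 bp over tested rows. Removing a smooth trend with length also removed each library's shift over all rows, as setting the median deviation to 0 does. The differences were then -0.30 for Ppia (limma adjusted p = 0.0530), 0.35 for Gapdh (limma adjusted p = 0.107) and 0.16 for Actb (limma adjusted p = 0.186). With the median deviation set to 0 and no length trend removed they were -0.37, 0.31 and 0.13. The part of the abundant rows in the differences was not tested.

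Neither drug moved a reference gene past the test in stressed rats. Against CUMS-Sal, 0 of 5 genes were called in CUMS-Flx, where 0% of all rows were, and 0 of 5 in CUMS-Alb, where 0% were. At an unadjusted p under 0.05 limma had 1523 rows for fluoxetine and 559 for albiflorin, none of the 5 among them. With recovered reads as input, limma-voom had 0 of 5 called in both comparisons. The share of all rows it called was not counted here, so that result cannot be set against all rows. For fluoxetine the log2 differences were -0.13 for Actb (95% interval -0.33 to 0.07), -0.10 for Tbp (-0.33 to 0.12), 0.09 for Ppia (-0.08 to 0.26), -0.04 for Gapdh (-0.36 to 0.29) and -0.00 for Ywhaz (-0.13 to 0.12). Actb was the only 1 of the 5 whose CUMS-Flx and CUMS-Sal libraries did not overlap, with CUMS-Flx lower. Over all rows 13.6% did not overlap with CUMS-Flx lower and 4.25% with CUMS-Flx higher. For albiflorin they were -0.06 for Tbp (-0.29 to 0.16), -0.05 for Actb (-0.25 to 0.14), 0.04 for Ppia (-0.13 to 0.20), -0.03 for Ywhaz (-0.15 to 0.09) and -0.02 for Gapdh (-0.34 to 0.31). All 5 genes overlapped between CUMS-Alb and CUMS-Sal, against 4.75% of all rows not overlapping with CUMS-Alb higher and 6.5% with it lower. Between CUMS-Alb and CUMS-Flx 0 of 5 were called, with log2 differences of -0.06 to 0.08, and 0.00656% of all rows were. All 5 genes overlapped there too, where 10.6% of all rows did not with CUMS-Alb higher and 3.13% with it lower.

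Against unstressed rats, both drug-treated groups are compared with the same Ctrl-Sal libraries as CUMS-Sal, so likeness between these comparisons is no separate support. In CUMS-Flx against Ctrl-Sal 0 of 5 genes were called and 0.0524% of all rows (0.0328% higher and 0.0197% lower), with log2 differences of 0.38 for Gapdh (limma adjusted p = 0.225), -0.17 for Ppia (limma adjusted p = 0.270) and 0.11 for Actb. With Ctrl-Sal replicate 2 left out these were 0.16, -0.11 and 0.01, none called. In CUMS-Alb against Ctrl-Sal 0 of 5 were called and 2.5% of all rows (2.18% higher and 0.321% lower), with 0.40 for Gapdh (limma adjusted p = 0.112), -0.23 for Ppia (limma adjusted p = 0.0858) and 0.18 for Actb. Gapdh did not overlap with Ctrl-Sal in CUMS-Flx, where 11.9% of all rows did not and were higher, and Ppia did not overlap in either group, where 5.75% of rows in CUMS-Flx and 6.37% in CUMS-Alb did not and were lower. Gapdh overlapped in CUMS-Alb, where 24.6% of rows did not and were higher. Without Ctrl-Sal replicate 3 Gapdh, Ppia and Actb were called in CUMS-Alb, at 0.52, -0.28 and 0.29, and without Ctrl-Sal replicate 2 the values were 0.18, -0.16 and 0.09, not called. Counts of all rows called with a library left out were made for CUMS-Sal against Ctrl-Sal only. Ywhaz differed by -0.01 and -0.04 and Tbp by -0.11 and -0.07 in the fluoxetine and albiflorin comparisons. In a limma F test of any difference among the 4 groups, 0 of 5 genes were called and 0.0459% of all rows, with the lowest adjusted p for Ppia (0.153) and the highest for Ywhaz (0.941).

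Reference genes are used as the denominators of ratios, and ratios among the 5 differed widely in stability. Over the 10 pairs the SD of the log2 ratio across 12 libraries ran from 0.12 for Tbp to Ywhaz to 0.37 for Gapdh to Ppia, and without Ctrl-Sal replicate 2 from 0.08 for Actb to Ywhaz to 0.19 for Gapdh to Ppia. Gapdh to Ppia was 0.753, 0.441 and 0.824 in the Ctrl-Sal libraries and 0.956, 1.14 and 1.03 in CUMS-Sal. It was 0.826, 0.968 and 1.07 in CUMS-Flx and 1.08, 1.02 and 0.911 in CUMS-Alb. All stressed libraries exceeded all Ctrl-Sal libraries in this ratio, the lowest CUMS-Flx library narrowly, and the highest and lowest library differed 2.58-fold, or 1.51-fold without Ctrl-Sal replicate 2. Actb to Ywhaz had an SD of 0.13 and ran from 1.40 in Ctrl-Sal replicate 2 to 1.99 in CUMS-Sal replicate 3.

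The stability measure M of the geNorm method, the mean SD of a gene's log2 ratio to each of the other 4, ranked Ywhaz first and Gapdh last. M was 0.160 for Ywhaz, 0.188 for Actb, 0.200 for Tbp, 0.220 for Ppia and 0.278 for Gapdh, where a lower value is more stable. Without Ctrl-Sal replicate 2 Ywhaz stayed lowest at 0.0961, and Ppia, at 0.147, replaced Gapdh, at 0.130, as the highest. Scaled to the geometric mean of the other 4 genes, Ppia was called lower in CUMS-Sal than in Ctrl-Sal (log2 difference -0.42, SE 0.10, limma adjusted p = 0.0467), and Gapdh was at 0.42 (SE 0.15, limma adjusted p = 0.0996). On that scale Actb was at 0.20, Tbp at -0.10 and Ywhaz at -0.10, none of the 3 called by limma. Ppia was at -0.31 on that scale without Ctrl-Sal replicate 2 and not called (limma adjusted p = 0.131), Gapdh was at 0.19, Actb at 0.11, Tbp at 0.06 and Ywhaz at -0.07. The 4 genes set against Ppia include Gapdh and Actb, and over 12 libraries their mean offset was 0.16 higher in CUMS-Sal than in Ctrl-Sal. The change of Ppia from -0.26 to -0.42 follows from that offset and is no separate support. Scaling all 12 libraries by those 4 genes called 440 of the 15253 tested rows.

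As rulers for whole libraries, every single reference gene but Ywhaz gave offsets that spread more than the library-wide one. The SD of the offset over 12 libraries, on log2 FPKM with no pseudocount for the single genes, was 0.26 by Gapdh, 0.14 by Actb, 0.13 by Ppia, 0.13 by Tbp and 0.04 by Ywhaz, against 0.05 by the median deviation of tested rows and 0.06 by the mean of the 5. The median deviation of tested rows ran from -0.10 log2 units in Ctrl-Sal replicate 2 to 0.05 in CUMS-Alb replicate 1. Gapdh put Ctrl-Sal replicate 2 at -0.72 and Actb put it at -0.33, while Ppia put it at 0.30, Tbp at 0.27 and Ywhaz at 0.02. The mean of the 5 put it at -0.09, near the median of all rows, with deviations of opposite sign cancelling. In CUMS-Alb replicate 1 the mean of the 5 was at 0.12 against 0.05 for the median, with Gapdh at 0.27 and Tbp at 0.17. The gap was widest in CUMS-Alb replicate 3, with the mean of the 5 at -0.06 and the median at 0.03. Between CUMS-Sal and Ctrl-Sal the mean offset differed by 0.41 by Gapdh, 0.24 by Actb, -0.26 by Ppia, -0.01 by Tbp, -0.01 by Ywhaz and 0.07 by the mean of the 5, against 0.10 by the median of tested rows.

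**Figure D4:**
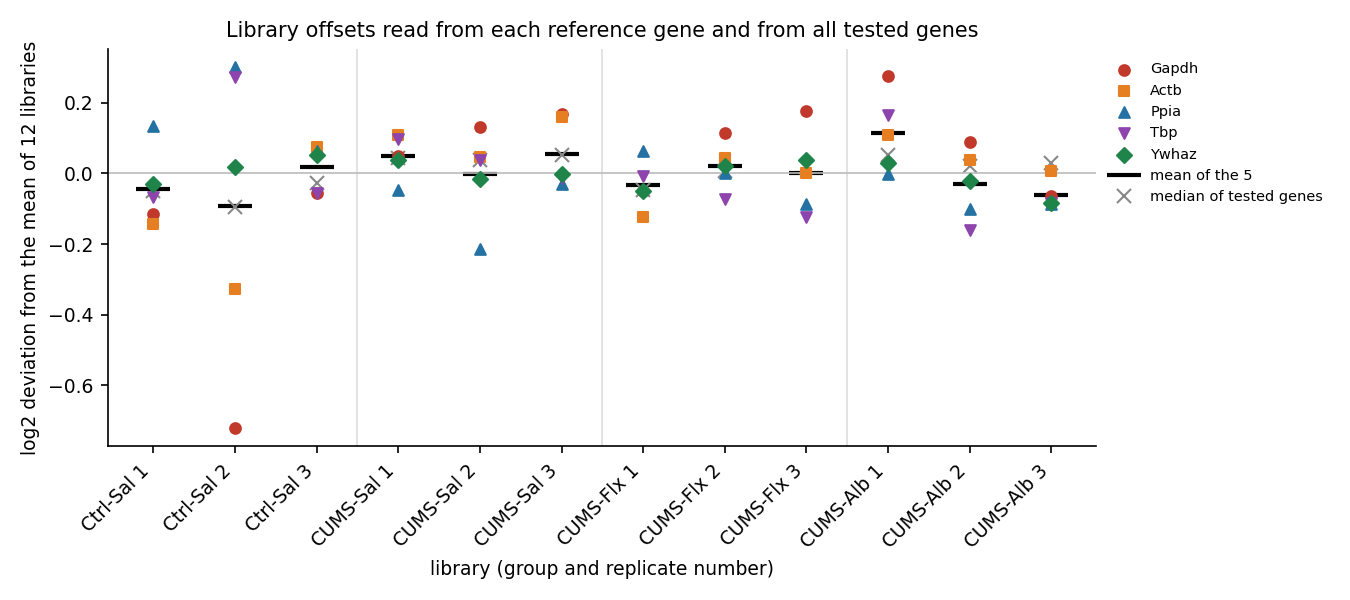
Log2 deviation of each library from the 12-library mean (y axis) as read from each reference gene, from the mean of the 5 (black bars) and from the median of tested genes (crosses), by library (x axis). In Ctrl-Sal replicate 2 the single genes run from -0.72 to 0.30 while the mean of the 5 and the median lie at -0.09 and -0.10.

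The number of genes called after stress, and its split by direction, differed widely between references. With FPKM as deposited 1402 rows were called in CUMS-Sal against Ctrl-Sal, 1228 higher and 174 lower. Scaled by Ywhaz the count was 1566, with 1447 higher and 119 lower, and 93.2% of the 1402 were called again in the same direction. The Ywhaz offset had an SD of only 0.04, so dividing by it hardly changed the deposited values. That share therefore cannot rate Ywhaz as a reference. Scaled by Ppia it was 7717, with 7680 higher and 37 lower, the largest count of the scalings tried. Scaled by Actb 56 rows were higher and 85 lower, a split that turned to 20 and 8 without Ctrl-Sal replicate 2. Scaled by Gapdh there were 11 higher and 4 lower, and scaled by Tbp 7 and 2. The geometric mean of all 5 gave 388 higher and 131 lower rows, and 35.9% of the 1402 were called again.

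The shift and the spread of all rows differed between references, and both moved when Ctrl-Sal replicate 2 was left out. The median log2 difference of all rows was 0.34 after scaling by Ppia, -0.27 by Gapdh, -0.11 by Actb, 0.11 by Tbp, 0.11 by Ywhaz and 0.04 by the 5 together, against 0.10 for FPKM as deposited. Leaving that library out, it was 0.26 by Ppia, -0.10 by Gapdh, -0.04 by Actb, -0.01 by Tbp, 0.09 by Ywhaz and 0.04 by the 5 together, against 0.08 as deposited, so the sign by Tbp turned. Dividing by a gene moves every row by about that gene's own group difference, with opposite sign. The medians after scaling therefore restate those differences and are no separate support. The calls by direction carry the same shift. The median within-group SD of the tested rows was 0.14 as deposited, 0.14 by Ywhaz, 0.16 by Actb, 0.17 by Ppia, 0.19 by Tbp and 0.22 by Gapdh, and without that library 0.12, 0.12, 0.14, 0.14, 0.15 and 0.15 in the same order. Leaving 1 gene out of the 5 gave 391 to 727 called rows, and without Ppia the split was 201 higher and 239 lower. With Ctrl-Sal replicate 2 left out, the counts were 4137 scaled by Ppia, 524 by Ywhaz, 28 by Actb, 26 by Tbp, 18 by Gapdh and 85 by the 5 together, against 369 for FPKM as deposited. The deposited scale itself gave 24 calls without CUMS-Sal replicate 3, 1 without CUMS-Sal replicate 2, 327 without CUMS-Sal replicate 1 and 2637 without Ctrl-Sal replicate 3. Setting the median deviation to 0 split the calls into 364 higher and 379 lower (49 and 33 without Ctrl-Sal replicate 2), equal upper quartiles into 429 and 370, and quantile normalization into 297 and 232.

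**Figure D5:**
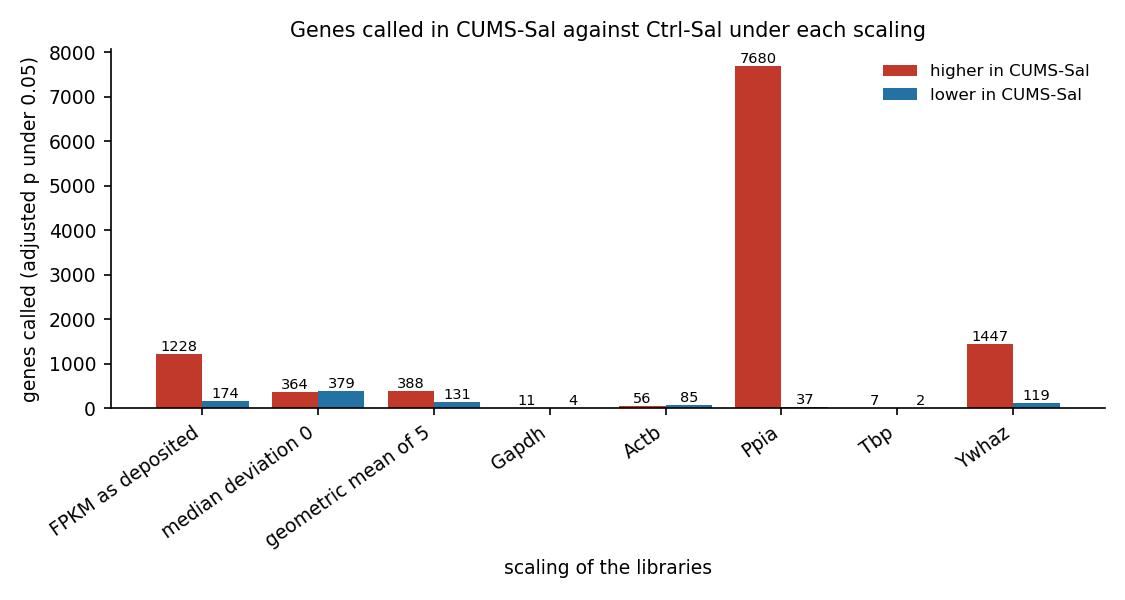
Number of rows called by limma at an adjusted p under 0.05 (y axis) as higher (red) or lower (blue) in CUMS-Sal than in Ctrl-Sal, for each scaling of the libraries (x axis). Counts run from 9 when scaled by Tbp to 7717 when scaled by Ppia, with 1566 by Ywhaz and 1402 for FPKM as deposited.

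The rows whose pattern over the 12 libraries was most like each reference gene are given by ID, since the sources used here do not pair the other IDs with names. Among 9267 other rows averaging 5 FPKM or more, the highest Pearson correlation was 0.991 for Gapdh (ENSRNOG00000056637), 0.971 for Actb (ENSRNOG00000010849), 0.970 for Ppia (ENSRNOG00000007371), 0.931 for Tbp (ENSRNOG00000016578) and 0.842 for Ywhaz (ENSRNOG00000009928). These values describe 12 libraries that share their scaling, and each is the highest of many. A correlation over 0.9 was reached by 776 rows with Gapdh, 217 with Actb, 97 with Ppia, 1 with Tbp and 0 with Ywhaz. These counts include Ctrl-Sal replicate 2, where Gapdh and Actb were far below their other libraries, and were not made without it. The correlations of the 5 named rows without Ctrl-Sal replicate 2 were 0.961, 0.935, 0.949, 0.914 and 0.862. ENSRNOG00000056637, at 48.4 FPKM on average, ran from 23.5 FPKM in Ctrl-Sal replicate 2 to 61.3 in CUMS-Alb replicate 1. These are the extremes of Gapdh too, as its choice by correlation with Gapdh makes likely.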

How the data were processed

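RNA from 12 rat hippocampus samples was sequenced. The submitters' processing notes name TopHat2 and build rn6. No version, counter, annotation or strand setting is given in the sources used here. What the authors deposited is 1 table of FPKM for 28959 rows with no unit in its header, and the unit was read from the values. For 22737 of 22737 rows above 0, 1 whole length and whole reads (within 0.001 of a read) gave the values. The recovered reads were used for depth, read numbers, counting error, shares of reads and limma-voom. The recovered lengths were used for the length values and the length trend. The scripts were tested on simulated data.

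Groups came from the sample titles. Values were tested as log2(FPKM + 0.5) for 15253 rows (minimum mean 0.5 FPKM), by limma 3.58.1 in R 4.3.3 (trend and robust settings, 1 coefficient per group, all 12 libraries), with Benjamini-Hochberg adjustment over all tested rows. A scaling by reference genes divided each library by their geometric mean before the same fit. Figures used Python 3.11.15 with matplotlib 3.10.9, numpy 2.4.6 and pandas 2.3.3.

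The members, lists and tests were chosen with earlier results of these data known. The symbols of the 5 IDs are those given when they were chosen; 0 Ensembl IDs are paired with symbols in the reference used, so the lists of other reference genes, gene families and cell type markers, tissue markers included, could not be matched and have no values. The rule for named genes was the 5 members and, for each, the row of highest correlation. Promoter windows were found for 3 of the 5 symbols. Alternatives covered pseudocounts, filters, limma settings, scalings, a replicate block and each library left out. Of the designs written for counts and for FPKM, the one for FPKM was used.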

Additional observations from a re-analysis of the deposited data

How the results depend on the processing

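The count of reference genes called remained 0 of 5 in every comparison under pseudocounts of 0.1 and 1, no filter, limma without trend and robust settings, the compared groups alone, the replicate block, quantile normalization and a length trend removed. In CUMS-Sal against Ctrl-Sal it was 1 of 5 (Ppia) with a minimum mean of 5 FPKM, the median deviation set to 0, equal upper quartiles, each gene relative to the other 4, and limma-voom. These settings use the same libraries and are not separate support. All rows called under them were counted for CUMS-Sal against Ctrl-Sal only. Leaving out single libraries gave 0 to 3 there and 0 to 3 in CUMS-Alb against Ctrl-Sal. Limma-voom, the length trend, and reference-gene scaling or the median deviation set to 0 without Ctrl-Sal replicate 2 were chosen after seeing the data. Of 580 recomputed member values, 531 kept direction and side of the threshold, 11 came to pass it and 38 uncalled ones changed sign, at sizes up to 0.10; the cause was not tested.

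All genes called in CUMS-Sal against Ctrl-Sal numbered 1402 as reported, 1363 and 1475 with pseudocounts of 0.1 and 1, and 251 with no filter. They numbered 1577 of 9272 rows with a minimum mean of 5 FPKM and 1849 of 15678 rows by limma-voom. The count was 740 without trend and robust settings, 0 in the compared groups alone and 529 by quantile normalization. It was 743 with median deviation 0, 799 with equal upper quartiles and 526 with the length trend removed. Leaving out single libraries gave 1 to 2637. Reference scaling gave 519 by all 5, 15 by Gapdh, 141 by Actb, 7717 by Ppia, 9 by Tbp and 1566 by Ywhaz. Leaving Gapdh, Actb, Ppia, Tbp or Ywhaz out of the 5 gave 656, 575, 440, 727 and 391. Without Ctrl-Sal replicate 2 there were 18 by Gapdh, 28 by Actb, 4137 by Ppia, 26 by Tbp, 524 by Ywhaz, 85 by all 5 and 82 with median deviation 0. The fit with the replicate number as a block gave 565. The labels share only numbers: 1 of 18 same-numbered pairs of libraries had a correlation of deviations over 0.1 (range -0.159 to 0.127), and 1 of 12 libraries correlated best with its own number.

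The uncalled log2 differences that changed sign were as follows. Quantile normalization gave Ywhaz 0.0756 in CUMS-Sal, 0.00834 in CUMS-Flx and 0.0225 in CUMS-Alb against Ctrl-Sal, Gapdh 0.0274 in CUMS-Alb against CUMS-Sal, and Tbp -0.0147 and Ywhaz 0.0142 in CUMS-Alb against CUMS-Flx. In CUMS-Flx against CUMS-Sal, Gapdh was 0.0169 with median deviation 0, 0.00449 with upper quartiles and 0.00233 relative to the other 4, and Ywhaz was 0.0481, 0.0356 and 0.0413, and 0.0438 with the length trend removed. In CUMS-Alb against CUMS-Flx, Gapdh was -0.0227 with median deviation 0 and -0.00752 with upper quartiles, and Tbp was -0.00325 with median deviation 0 and -0.00583 with the length trend removed. Relative to the other 4, Gapdh was 0.0137 in CUMS-Alb against CUMS-Sal. Without Ctrl-Sal replicate 2, Tbp in CUMS-Sal against Ctrl-Sal was 0.0637 relative to the other 4 and 0.0134 with median deviation 0, and the count of reference genes called was 0 of 5 on both scales. With single libraries left out, Tbp ran from -0.0656 to 0.0964 in CUMS-Sal and -0.165 to 0.0328 in CUMS-Alb against Ctrl-Sal, and Ywhaz from -0.0290 to 0.0120 in CUMS-Sal and -0.0339 to 0.0143 in CUMS-Flx. Against CUMS-Sal, Gapdh ran from -0.0843 to 0.0293 and Ywhaz from -0.0229 to 0.0217 in CUMS-Flx, and Gapdh from -0.103 to 0.0655, Ppia from -0.0234 to 0.0684 and Tbp from -0.155 to 0.000175 in CUMS-Alb. Between CUMS-Alb and CUMS-Flx, Gapdh ran from -0.0671 to 0.101, Tbp from -0.0520 to 0.103 and Ywhaz from -0.0550 to 0.00131. At a mean of 292 reads, counting error limits Tbp.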
